A study of Mus musculus with 2 samples.

Results

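p53-stress smooth muscle cells were the aortic smooth muscle cells (SMCs) with the highest share of RNA from 6 p53-responsive genes, and 111 such cells were found among 2226 gated SMCs of 2 mouse thoracic aortas. They were chosen by a score, the summed unique molecular identifiers (UMIs, each 1 captured RNA molecule) of Gdf15, Cdkn1a, Mdm2, Phlda3, Eda2r and Psrc1 over all UMIs of the cell. The top 5% of gated SMCs in each aorta were taken, which gave 65 of 1306 cells in aorta 1 and 46 of 920 cells in aorta 2. The gate was applied to cells with more than 200 genes, 3000 to 25000 UMIs and under 10% mitochondrial UMIs, and it asked for at least 5 UMIs of Myh11, Cnn1 and Lmod1 together, at least 5 UMIs of eGFP and no UMI of Pecam1, Cdh5, Ptprc or Pdgfra. The 2115 gated SMCs below the cut served as the comparison.

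Single-cell RNA sequencing had been performed on individual thoracic aortas of 12-week-old GFPiSMC mice of strain C57BL/6J, which the study used as wild type. Both animals carried Myh11-CreERT2 and the mT/mG reporter, and per the labels both received tamoxifen i.p. at 1 mg/d over 5 days when 3 weeks old, which switches SMCs from tdTomato to eGFP. The study's methods describe a later induction at another dose for its adult animals, so the timing in these aortas rests on the labels. Cre is driven by the Myh11 promoter, so the label marks the SMC lineage, and the study's methods give the animals as male. Both aortas belonged to 1 group (n = 2), with no untreated or mutant group analysed here, so the comparison was between cells of the same aorta and not between conditions. The libraries held 8947 and 6263 cells, 5275 and 3524 passed the cell filter, and 18 barcodes occurred in both libraries, none of them among the 111 cells.

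The protein p53 is a transcription factor that is held low by the ubiquitin ligase Mdm2, itself a p53 target, and that is stabilised by DNA damage and other stress. Its targets halt the cell cycle (Cdkn1a, encoding p21), restrain growth signalling (Phlda3, an Akt inhibitor), promote cell death (Bax, Bbc3), or act in repair and metabolism. Gdf15 encodes a secreted cytokine of the TGF-β superfamily that many stressed tissues release, Eda2r a receptor for ectodysplasin A2, and Psrc1 a microtubule-associated protein. A rise of such transcripts reports on the pathway's output, and neither p53 protein nor DNA damage was measured here.

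Depth was nearly the same in both sets of cells. The 65 cells of aorta 1 had a median of 8613 UMIs and 2833 genes against 8702 UMIs and 2925 genes in the other gated SMCs, and the 46 cells of aorta 2 had 7935.5 UMIs and 2839 genes against 8374 and 2902.5. Their median mitochondrial share was lower, 4.27% against 4.92% in aorta 1 and 4.07% against 5.16% in aorta 2. Its part in the results was not tested. No cell of the set was called a doublet by Scrublet, which called 19 and 6 of the gated SMCs. The gate required eGFP and the 3 SMC genes in every cell of both sets, so their presence is a description. eGFP, the lineage reporter, lay at 7594 and 6471 counts per total of 1e6 UMIs (CPM) in the summed p53-stress SMCs against 6860 and 6673 CPM in the others, and tdTomato at 21.8 and 12.9 CPM against 18.7 and 15.5 CPM. Myh11, the smooth muscle myosin heavy chain that the gate used, stood at 4007 and 3867 CPM against 4806 and 4432 CPM.

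The score had a long upper tail. Its median was 1693 CPM in the p53-stress SMCs of aorta 1 and 2228 CPM in those of aorta 2, with highest values of 6570 and 8197 CPM, while the other gated SMCs had medians of 97.0 and 95.8 CPM. No UMI of the 6 genes was found in 485 of 1241 and 357 of 874 of the other SMCs. The cut did not fall in a gap: in aorta 1 the last cell inside had 9 score UMIs of 8972 and the first outside 7 of 7025, and in aorta 2 they had 15 of 13108 and 14 of 12858. Within 20% of the cut lay 13 and 7 cells of the set and 21 and 10 others. The set is a range cut from a per-cell score. Other cells of the aorta were not free of the 6 genes, at 338 and 309 CPM in summed fibroblast-gated cells, 319 and 384 CPM in endothelial-gated cells and 146 and 120 CPM in leukocyte-gated cells, against 150 and 152 CPM in the other SMCs and 2001 and 2437 CPM in the p53-stress SMCs. Only the SMCs were selected by score. The highest single cells of these gates reached 6405 and 4636 CPM (fibroblast), 2439 and 7593 CPM (endothelial) and 6209 and 3072 CPM (leukocyte). These values lie within the range of the p53-stress SMCs.

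The score was carried mostly by Cdkn1a, which the GENCODE annotation of GRCm38 places at chr17:29090976-29100727 on the plus strand. This gene gave 68.8% and 73.5% of the score UMIs in the p53-stress SMCs of aortas 1 and 2, and it was the leading gene in 60 of 65 and 43 of 46 cells, with 1 to 39 UMIs a cell (median 11) and 1 to 42 (median 15). Phlda3 followed with 19.1% and 17.7% of the score UMIs. Mdm2 gave 6.99% and 3.70%, and Gdf15 3.63% and 2.43%. Psrc1 and Eda2r together were the rarest, Psrc1 with 11 and 19 UMIs and Eda2r with 5 and 6 UMIs over all cells of the set. In level, Cdkn1a stood at 1376 and 1791 CPM against 71.0 and 67.0 CPM in the other SMCs, and Gdf15 at 72.6 and 59.2 CPM against 2.09 and 1.49 CPM. In aorta 1, 17 of the 40 Gdf15 UMIs and 22 of the 77 Mdm2 UMIs came from 1 cell each, and without the cell that had most of it Gdf15 stood at 42.5 and 44.6 CPM in the 2 aortas. These values describe the choice of cells and were not tested.

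Most of the chosen cells held several of the 6 genes. In aorta 1, 5 cells held 1 of them, 21 held 2, 25 held 3, 11 held 4, 2 held 5 and 1 held all 6, and in aorta 2, 12 held 2, 23 held 3, 9 held 4 and 2 held 5. Thinned to 3000 UMIs a cell, 11 of 65 and 15 of 46 cells still held exactly 3 of the genes, against 6 of 1241 and 1 of 874 other SMCs. A further 2 and 4 cells of the set held 4, and no other SMC did. Gdf15 was detected in 16 of 65 and 10 of 46 cells. After thinning it was found in 12.3% (exact 95% interval 5.47 to 22.8) and 10.9% (3.62 to 23.6) of the p53-stress SMCs and in 0.564% (0.227 to 1.16) and 0.114% (0.0029 to 0.636) of the others. Cdkn1a without thinning was found in all cells of the set and in 408 of 1241 and 249 of 874 others. These intervals cover counting error of cells only.

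**Figure D1:**
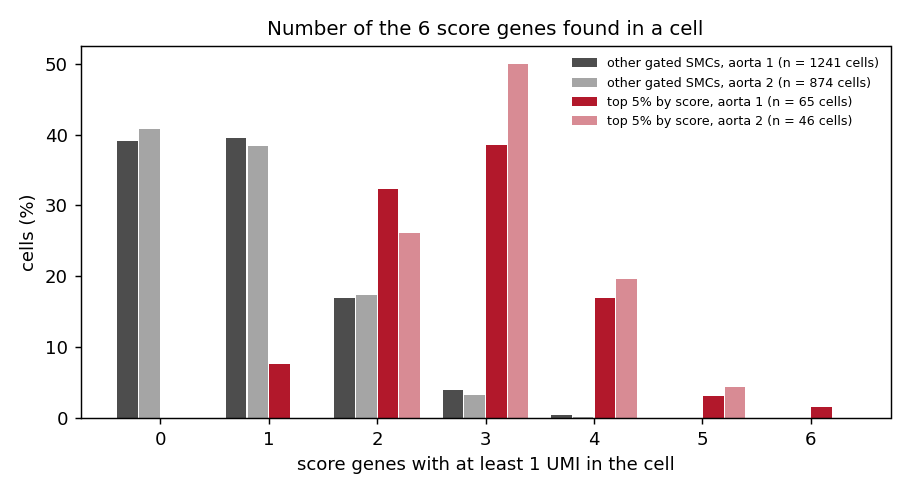
Share of cells (y axis, %) by the number of score genes with at least 1 UMI (x axis) for p53-stress SMCs (red) and other gated SMCs (grey) of each aorta, with dark bars for aorta 1 and light bars for aorta 2. The most common number was 3 in both sets of p53-stress SMCs, with 25 and 23 cells, and 0 or 1 in the other SMCs. The score chose the cells, so the contrast is a description.

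Gdf15 marked a minority, and the cells that carried it were not the only ones with the other genes. Among p53-stress SMCs of aorta 1, Cdkn1a stood at 1479 CPM in the 16 cells with a Gdf15 UMI and at 1333 CPM in the 49 without, and in aorta 2 at 2181 CPM in 10 and 1673 CPM in 36 cells. Bax, which the score did not use, stood at 368 and 235 CPM in aorta 1 and at 498 and 386 CPM in aorta 2, with and without Gdf15. Without the cell that had most of it in each group, Bax stood at 259 and 211 CPM in aorta 1 and at 466 and 360 CPM in aorta 2, and Cdkn1a at 1310 and 1295 CPM and at 1840 and 1654 CPM. Mdm2 stood at 104 and 155 CPM in aorta 1, where 22 of the 60 UMIs without Gdf15 came from 1 cell, and had 5 UMIs with Gdf15 in aorta 2. Cdkn1a and Mdm2 had helped to choose the cells, and none of these differences was tested.

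The 6 genes were then measured where they had not chosen the cells. When each cell's UMIs were divided at random into equal sets, cells were ranked in 1 set and read in the other, the summed score genes were 10.4-fold and 16.6-fold higher in the chosen cells of aortas 1 and 2 (mean 13.5 ± 4.41, SD, n = 2). The 2 sets exchanged gave 12.3-fold and 12.8-fold. Of the cells chosen in this way, 52 of 65 and 42 of 46 were p53-stress SMCs by the full score. In both aortas and both directions the excess in UMIs that chose nothing was over 10-fold.

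Each gene was also followed in cells ranked by the other 5. Gdf15 reached 68.4 and 55.7 CPM in cells chosen without it against 2.27 and 1.63 CPM in the remaining SMCs, which was a log2 fold change of 4.91 with SE 0.334 (adjusted p = 1.66e-05 in edgeR's quasi-likelihood test with Benjamini-Hochberg adjustment). In the remaining SMCs Gdf15 was under the low-count filter, so it was tested only through its level in the chosen cells, and it also passed in the fit with no such filter. In the filtered comparison 0.413% of 11380 genes tested were higher. Cdkn1a reached 918 and 1447 CPM against 96.7 and 92.4 CPM (log2 fold change 3.53, SE 0.111). Its adjusted p was at most 2.72e-07 over the edgeR and DESeq2 fits, with 1.2% of 11366 genes tested higher. Without Cdkn1a the ranking changed most, and 37 of 65 and 31 of 46 of the cells it chose were p53-stress SMCs by the full score.

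Phlda3 and Mdm2 rose likewise in cells that they had not helped to choose. Phlda3 reached 350 and 358 CPM against 45.1 and 51.3 CPM (log2 fold change 2.84, SE 0.134), with an adjusted p of at most 7.61e-10 over the edgeR and DESeq2 fits and 0.89% of 11346 genes tested higher. Mdm2 changed least of the 6, to 96.2 and 86.0 CPM against 35.2 and 35.7 CPM (log2 fold change 1.33, SE 0.198, edgeR adjusted p = 1.39e-06), with 0.868% of 11169 genes tested higher. Leaving out Psrc1 or Eda2r left the same 111 cells. In these Psrc1 had 11 and 19 UMIs against 7 and 3 in the others, and Eda2r 5 and 6 UMIs against 4 and 1. Both were under the low-count filter in the other SMCs and entered the test only through the chosen cells, so their counts are given as a description. All 6 genes were higher in both aortas.

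**Figure D2:**
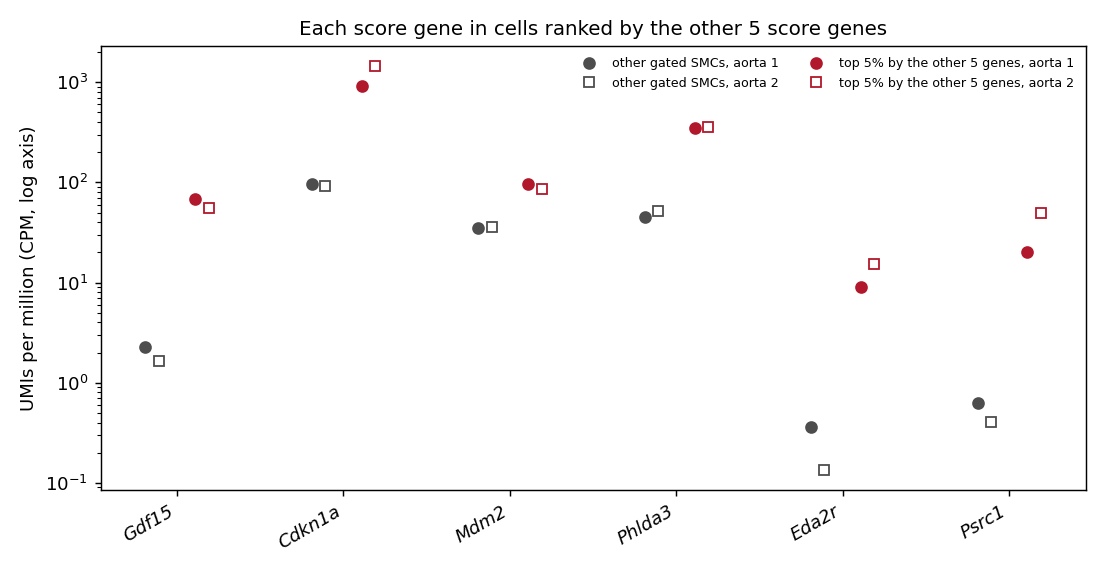
Level of each score gene (y axis, CPM on a log axis) in cells ranked in the top 5% by the other 5 genes (red) and in the remaining gated SMCs (grey), with filled circles for aorta 1 and open squares for aorta 2. For every gene both red points lie above both grey points. Mdm2 shows the smallest fold difference (96.2 and 86.0 CPM against 35.2 and 35.7 CPM).

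Cdkn1a and Mdm2 were also the score genes whose promoter sequence held the p53 motif. RefSeq promoter windows of GRCm38.p6, reaching from upstream of a gene's start to just after it, were searched on both strands for the p53 decamer consensus (a site of 10 bases that is its own reverse complement), which 8.36% of 32851 windows held. A pair of decamers at most 13 bases apart, the form of a full p53 response element, was held by 24 windows (0.0731%). Of the 6 score genes, 2 had a decamer and 1, Cdkn1a, a pair, 73 and 51 bases upstream of its start. A match is a description of the letters and not evidence of binding. The stretches are shown for the 2 score genes and for Ccng1 and Bax, p53 targets described next, with decamers in capitals, 5′ to 3′ on the gene's strand. They lie at chr17:29090886-29090957 (plus strand), chr10:117710915-117710964 (minus strand), chr11:40755442-40755491 (minus strand) and chr7:45467070-45467119 (minus strand), all upstream of the gene's annotated start.
Cdkn1a: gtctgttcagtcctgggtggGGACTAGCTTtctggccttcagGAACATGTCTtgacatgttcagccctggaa
Mdm2: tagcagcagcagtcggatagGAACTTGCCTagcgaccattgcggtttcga
Ccng1: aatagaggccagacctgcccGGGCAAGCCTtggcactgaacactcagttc
Bax: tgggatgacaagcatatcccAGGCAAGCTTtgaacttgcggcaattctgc

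Across the transcriptome the p53-stress SMCs differed from the other gated SMCs in few genes. UMIs were summed per aorta and set of cells, and the sums were compared within aortas by edgeR. Of 11343 genes tested outside the score and the gate, 76 were higher (0.67%) and 130 lower (1.15%) at an adjusted p under 0.05, of which 43 and 50 changed over 2-fold. Of the genes called, 75 of the 76 and all 130 had the same direction in both aortas. In total 1192 genes had an unadjusted p under 0.05.

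Some known p53 targets outside the score were higher. Of 40 listed targets, 35 were tested, 12 rose, none fell and 23 did not pass, against 0.67% of all genes tested that rose. The low-count filter was passed in the other SMCs of both aortas by 30 of the 35, of which 11 rose, and the remaining 5, of which 1 rose (Trp53cor1), were tested only through their level in the p53-stress SMCs. In sign alone, 27 were higher in both aortas and 3 lower in both. Their median log2 fold change was 0.77, against -0.01 over all genes tested. DESeq2 called 5 of the 12, Aen, Ccng1, Bax, Dcxr and Rps27l. By role, 6 of 12 targets of cell cycle arrest and feedback rose, 4 of 8 of cell death, 2 of 10 of metabolism and other roles, and 0 of 5 of DNA repair and nucleotide supply, whose median log2 fold change was 0.00. The list median remained between 0.65 and 0.90 when cells were chosen without Cdkn1a, without Gdf15 or in part of their UMIs.

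Ccng1 and Zmat3 were among the targets in cell cycle arrest and in feedback on p53 that rose. Ccng1, cyclin G1, which recruits a phosphatase to Mdm2, stood at 116 and 152 CPM in the p53-stress SMCs of aortas 1 and 2 against 31.6 and 33.9 CPM (log2 fold change 1.97, SE 0.175, edgeR adjusted p = 3.9e-07). Of the cells, 37 of 65 and 35 of 46 held it, with at most 5 UMIs in any. Zmat3, an RNA-binding zinc finger protein, stood at 38.1 and 30.9 CPM against 10.7 and 9.63 CPM (log2 fold change 1.73, edgeR adjusted p = 0.0038), and did not pass with DESeq2 (adjusted p = 0.115). Trp53inp1, a p53-induced nuclear protein, rose from 32.6 to 54.5 CPM and from 33.5 to 103 CPM (log2 fold change 1.14).

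Smaller rises were found for Btg2, an antiproliferative cofactor, at 223 and 180 CPM against 155 and 114 CPM (log2 fold change 0.54, edgeR adjusted p = 0.0327), and for Ptp4a3, a phosphatase, at 172 and 196 CPM against 121 and 108 CPM (log2 fold change 0.62). Btg2 passed under 10 of 18 alternatives, with a log2 fold change as low as 0.13, and not with DESeq2 (adjusted p = 0.442). Trp53cor1, the long noncoding RNA lincRNA-p21 that is transcribed next to Cdkn1a (chr17:29057430-29079179, minus strand), had a log2 fold change of 3.12 (SE 0.701, edgeR adjusted p = 0.0193), but on only 6 and 5 UMIs. In the other SMCs it was under the low-count filter, at 1.81 and 0.543 CPM, so it was tested only because of its level in the p53-stress SMCs. Among arrest genes that did not pass, Plk2 stood at 5.45 and 7.72 CPM against 0.997 and 0.949 CPM and Ppm1d, the p53 phosphatase, at 27.2 and 23.2 CPM against 18.0 and 19.7 CPM. These and the genes below that did not pass were named after their values were seen.

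Among targets in cell death, the effector Bax and the nuclease Aen showed clear differences. Bax, which permeabilises the outer mitochondrial membrane, stood at 274 and 412 CPM against 104 and 106 CPM (log2 fold change 1.64, SE 0.135, edgeR adjusted p = 1.5e-07), with a UMI in 43 of 65 and 41 of 46 cells. Aen, apoptosis-enhancing nuclease, stood at 102 and 97.8 CPM against 15.0 and 17.8 CPM (log2 fold change 2.59, SE 0.22, edgeR adjusted p = 2.22e-07). In both genes the lowest p53-stress value lay above the highest value of the other SMCs.

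Bbc3, which encodes the BH3-only protein PUMA, stood at 19.97 and 46.3 CPM against 7.07 and 8.27 CPM (log2 fold change 1.99, edgeR adjusted p = 0.00463), and Ei24, an endoplasmic reticulum protein, at 116 and 105 CPM against 58.4 and 57.6 CPM (log2 fold change 0.90, edgeR adjusted p = 0.00343). The death receptor Fas did not pass, at 94.4 and 100.4 CPM against 73.4 and 74.5 CPM (adjusted p = 0.468 by edgeR), nor did Perp, a desmosomal p53 effector, at 107 and 72.0 CPM against 62.2 and 50.7 CPM (adjusted p = 0.0802 by edgeR). Outside the p53 lists, none of 16 apoptosis regulators tested passed (median log2 fold change -0.01). Of these the most abundant, the survival factor Mcl1, stood at 174 and 142 CPM against 159 and 155 CPM.

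Rps27l and Dcxr rose among targets of other roles. Rps27l, a paralogue of the ribosomal protein S27 that is induced by p53, was the most abundant target, at 859 and 847 CPM against 319 and 311 CPM (log2 fold change 1.40, SE 0.0923, edgeR adjusted p = 5.65e-09), and 62 of 65 and 45 of 46 cells held it. Since it has a near copy in Rps27, its counts depend on how reads were shared between them. Dcxr, a xylulose reductase, stood at 32.7 and 87.5 CPM against 15.3 and 21.0 CPM (log2 fold change 1.60, edgeR adjusted p = 0.00256). Sesn2, a stress-induced regulator of mTORC1, did not pass, at 9.08 and 10.3 CPM against 1.99 and 2.71 CPM (adjusted p = 0.167 by edgeR).

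**Figure D3:**
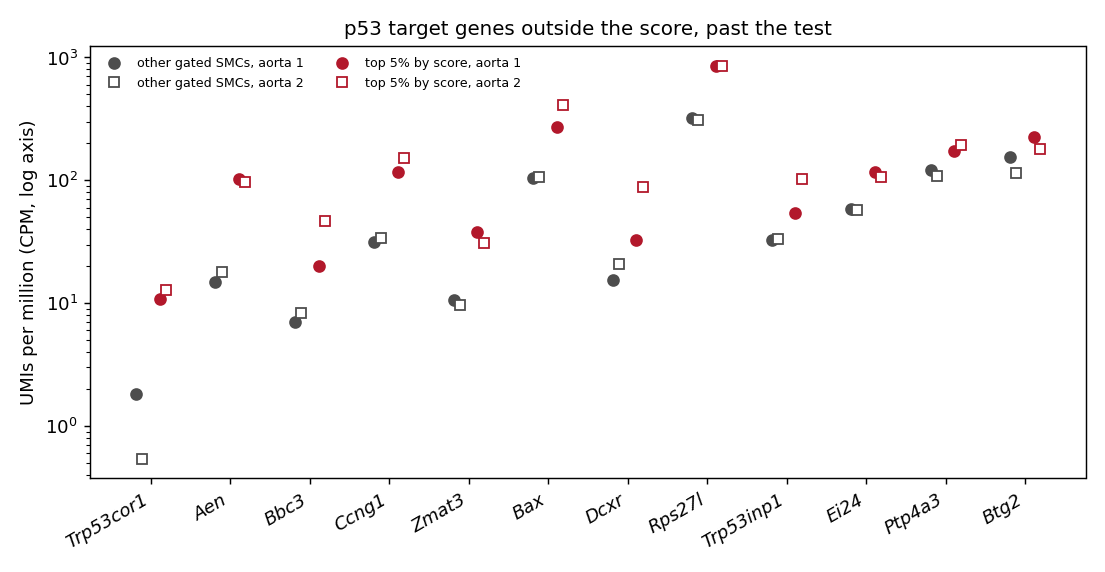
Levels (y axis, CPM on a log axis) of the 12 p53 targets outside the score that passed the test, in p53-stress SMCs (red) and other gated SMCs (grey), with filled circles for aorta 1 and open squares for aorta 2. In each gene both red points lie above both grey points, with Rps27l the most abundant (859 and 847 CPM against 319 and 311 CPM).

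Trp53, which encodes p53, did not pass the test, at 72.6 and 66.9 CPM against 43.5 and 47.2 CPM (log2 fold change 0.60, adjusted p = 0.189 by edgeR). None of 10 tested regulators upstream of p53, Trp53 among them, passed, and their median log2 fold change was 0.19. The deubiquitinase Usp7, named for its level, stood at 65.4 and 59.2 CPM against 52.1 and 56.1 CPM. Of 16 tested DNA repair genes outside the p53 lists none passed (median -0.06), and Rad50, a subunit of the break-sensing MRN complex, stood at 38.1 and 43.7 CPM against 39.9 and 41.6 CPM.

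The p53 targets outside the score, taken as a sum, followed the score over its range. Summed over the 40 listed targets, they stood at 3056 CPM in the top 2.5% of gated SMCs of aorta 1, at 2219 CPM in the next 2.5%, at 1544 CPM in the cells ranked 5 to 10% and at 1467 CPM at 10 to 20%, and fell to 1315 CPM in the remaining cells with a score UMI and 1245 CPM in those without. In aorta 2 the same steps gave 3654, 2347, 1696, 1384, 1248 and 1197 CPM. Bax stood at 378 and 569 CPM in the top 2.5% and at 94.0 and 100.01 CPM in cells without a score UMI. Single targets did not all fall stepwise below the cut. Trp53inp1 in aorta 1 stood at 28.1 CPM in cells ranked 5 to 10% and at 33.0 CPM in those without a score UMI. Zmat3 in aorta 2 stood at 7.69 and 10.6 CPM in the same groups. Ccng1 in aorta 1 stood at 28.3 CPM in the remaining cells with a score UMI and at 35.3 CPM in those without. Cells just below the cut thus held intermediate levels of the summed targets, and the comparison cells include some of them.

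**Figure D4:**
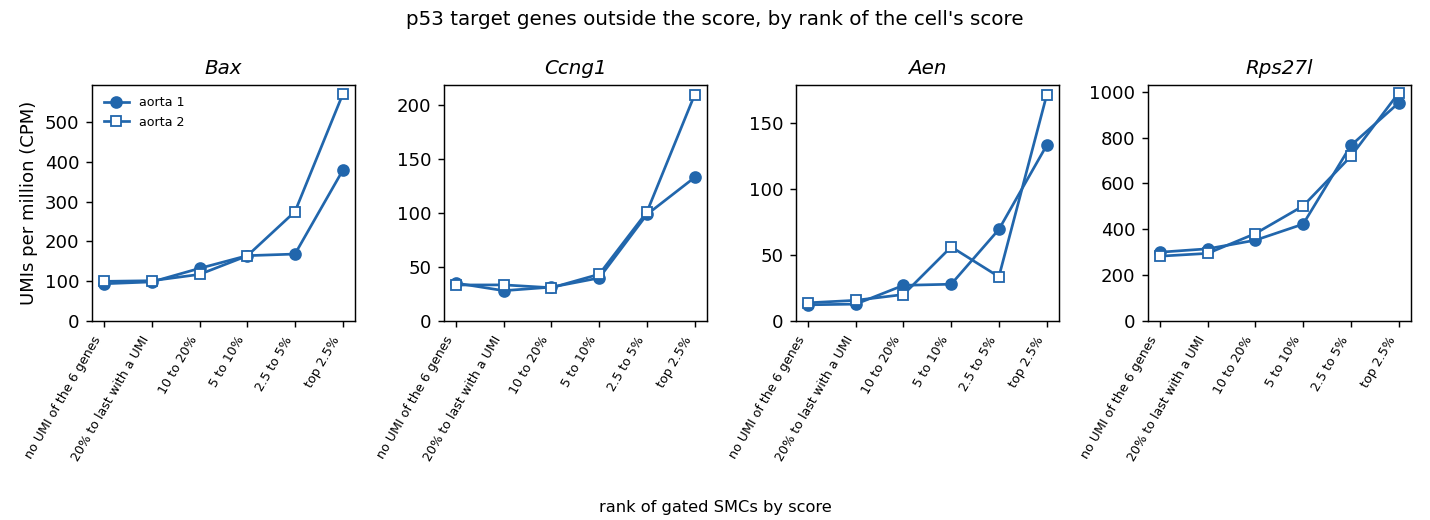
Levels (y axis, CPM from 0) of Bax, Ccng1, Aen and Rps27l, which the score did not use, in gated SMCs grouped by the rank of their score (x axis, from cells with no UMI of the 6 genes to the top 2.5%), for aorta 1 (filled circles) and aorta 2 (open squares). All 4 genes were highest in the top 2.5%, where Bax reached 378 and 569 CPM.

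Other stress programmes were followed with separate lists. Of 15 tested genes of the integrated stress response, the eIF2α pathway, 2 rose and none fell (median log2 fold change 0.29), where 0.67% of all genes tested rose. The number that rose was 1 with DESeq2, in cells scored without Cdkn1a and in cells scored without Gdf15. Atf5, a transcription factor of this response, stood at 281 and 260 CPM against 102 and 101 CPM (log2 fold change 1.38, SE 0.123, edgeR adjusted p = 3.9e-07). Without the cell that had most of it in each aorta, with 35 and 19 UMIs, Atf5 stood at 221 and 215 CPM. Ddit3, encoding CHOP, stood at 81.7 and 69.5 CPM against 39.2 and 38.5 CPM (log2 fold change 0.93, edgeR adjusted p = 0.0119), for 1 of 2 overlapping gene IDs of that symbol, so its value is uncertain. Atf4, the central factor of the response, did not pass, at 163 and 56.6 CPM against 87.9 and 73.1 CPM.

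None of 15 genes of the endoplasmic reticulum unfolded protein response passed (median -0.08), and the chaperone Hspa5 stood at 806 and 643 CPM against 894 and 780 CPM. Of 12 genes of the NRF2 and metallothionein group, 1 rose, where 0.67% of all genes tested did. This was Mt1, a metal-binding protein, at 468 and 404 CPM against 297 and 328 CPM (log2 fold change 0.46, edgeR adjusted p = 0.0288). Of 13 heat shock genes 2 fell, where 1.15% of all genes tested fell. These were Hspa1a from 444 to 330 CPM and from 302 to 219 CPM (log2 fold change -0.48) and Hspb1, a small heat shock protein of muscle (log2 fold change -0.42), and neither passed without the aorta as a block. Mt1 did not pass with DESeq2, without the block or in cells scored without Gdf15. In the reported fit none of these 3 lists had more than 1 gene that rose. In the NRF2 and metallothionein group 2 rose with library totals only and 2 in cells scored without Cdkn1a.

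Immediate early genes, which stimulation and cell isolation rapidly induce, included some that were lower. Of 18 tested, 4 fell and none rose (median log2 fold change -0.18), where 1.15% of all genes tested fell. None fell with DESeq2 or in cells scored without Gdf15, 1 fell without the aorta as a block, and in cells scored without Cdkn1a 4 fell and 3 rose. Dusp1, a MAP kinase phosphatase, stood at 87.1 and 90.1 CPM against 136 and 189 CPM (log2 fold change -0.88, edgeR adjusted p = 0.00347), and Nr4a1, an orphan nuclear receptor, at 39.9 and 36.0 CPM against 90.8 and 57.1 CPM (log2 fold change -1.04). Fos had 18 UMIs in the p53-stress SMCs of aorta 1 and 0 in those of aorta 2, where 3 UMIs would be 7.72 CPM, against 61.6 and 41.0 CPM in the other SMCs. It was under the low-count filter in the p53-stress SMCs of aorta 2 and so was tested only through its level in the other SMCs. Jun was the other gene that fell, and Atf3 stood at 296 and 95.2 CPM against 277 and 123 CPM.

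No cell cycle gene passed. Of 29 listed, 16 were tested and none was called (median log2 fold change 0.16), and the proliferation markers Mki67 and Top2a stood at 2.57 CPM or less in each set and aorta. Ccnd2, cyclin D2, stood at 249 and 314 CPM against 292 and 276 CPM. Of 13 tested senescence-associated genes 1 rose and 2 fell, where 0.67% of all genes tested rose and 1.15% fell, and none passed with DESeq2. Timp1, a metalloproteinase inhibitor, had a log2 fold change of 2.28 (edgeR adjusted p = 0.00148), but 68 of its 69 UMIs in aorta 2 came from 1 cell, and without the cell that had most of it the level was 9.35 and 2.67 CPM, below the 18.9 and 17.0 CPM of the other SMCs. Igfbp4 and Igfbp5, binding proteins of insulin-like growth factors, fell, Igfbp5 from 116 to 63.5 CPM and from 111 to 12.9 CPM (log2 fold change -1.49, edgeR adjusted p = 0.00258). Igfbp4 did not pass without the block, and its log2 fold change was 0.044 in cells scored without Cdkn1a. Neither Igfbp4 nor Igfbp5 was called lower in cells scored without Gdf15. Cdkn2a, encoding p16 and p19Arf, was too sparse to be tested.

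Some contractile genes were lower. Of 24 tested, 4 fell, none rose and 20 did not pass (median log2 fold change -0.18), where 1.15% of all genes tested fell, and none passed without the aorta as a block. In sign alone, 18 were lower in both aortas and none higher in both. Des, the muscle intermediate filament desmin, fell most, at 52.6 and 18.0 CPM against 121 and 68.8 CPM (log2 fold change -1.44, SE 0.219, edgeR adjusted p = 0.000578). Smtn, smoothelin, stood at 525 and 419 CPM against 626 and 627 CPM (log2 fold change -0.44, edgeR adjusted p = 0.0255) and Synpo2, a Z-disc protein, at 365 and 309 CPM against 479 and 411 CPM (log2 fold change -0.44). Actg2 was the other gene that fell. Tagln, transgelin, did not pass, with a log2 fold change of -0.01, nor did the smooth muscle actin Acta2 at -0.19. With DESeq2 or in cells scored without Gdf15 1 contractile gene fell, and in cells scored without Cdkn1a 9 did. None of 13 smooth muscle transcription regulators passed, among them Mef2c at 338 and 293 CPM against 288 and 273 CPM.

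Some matrix genes that the study followed were lower. Of 16 tested, 5 fell, none rose and 11 did not pass (median log2 fold change -0.34), where 1.15% of all genes tested fell, and 15 were lower in both aortas. The number that fell was 2 without the aorta as a block, 2 in cells scored without Gdf15 and 3 with DESeq2. Eln, elastin, stood at 2247 and 1536 CPM against 3222 and 3133 CPM (log2 fold change -0.80, SE 0.0983, edgeR adjusted p = 4.33e-05). Col1a2, a chain of fibrillar collagen, stood at 1198 and 898 CPM against 1440 and 1481 CPM (log2 fold change -0.52), and Col4a5, of the basement membrane, at 238 and 188 CPM against 294 and 309 CPM. Col18a1 and the integrin Itga8 were the others that fell. The median of the list was negative under each of the alternatives tried for it, between -0.47 and -0.30. Of 16 genes of the TGF-β response 1 rose and 1 fell (median -0.07), where 0.67% of all genes tested rose and 1.15% fell. They were Ltbp2, at 163 and 144 CPM against 97.5 and 93.6 CPM, where 39 of 90 UMIs in aorta 1 came from 1 cell, and Fn1, fibronectin, at 534 and 571 CPM against 644 and 780 CPM. Without the cell that had most of it, Ltbp2 stood at 95.4 CPM in aorta 1, below the other SMCs. Neither gene passed with DESeq2, and Fn1 did not pass without the block, in cells scored without Gdf15 or in cells chosen in part of their UMIs, and had a log2 fold change of 0.075 in cells scored without Cdkn1a.

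**Figure D5:**
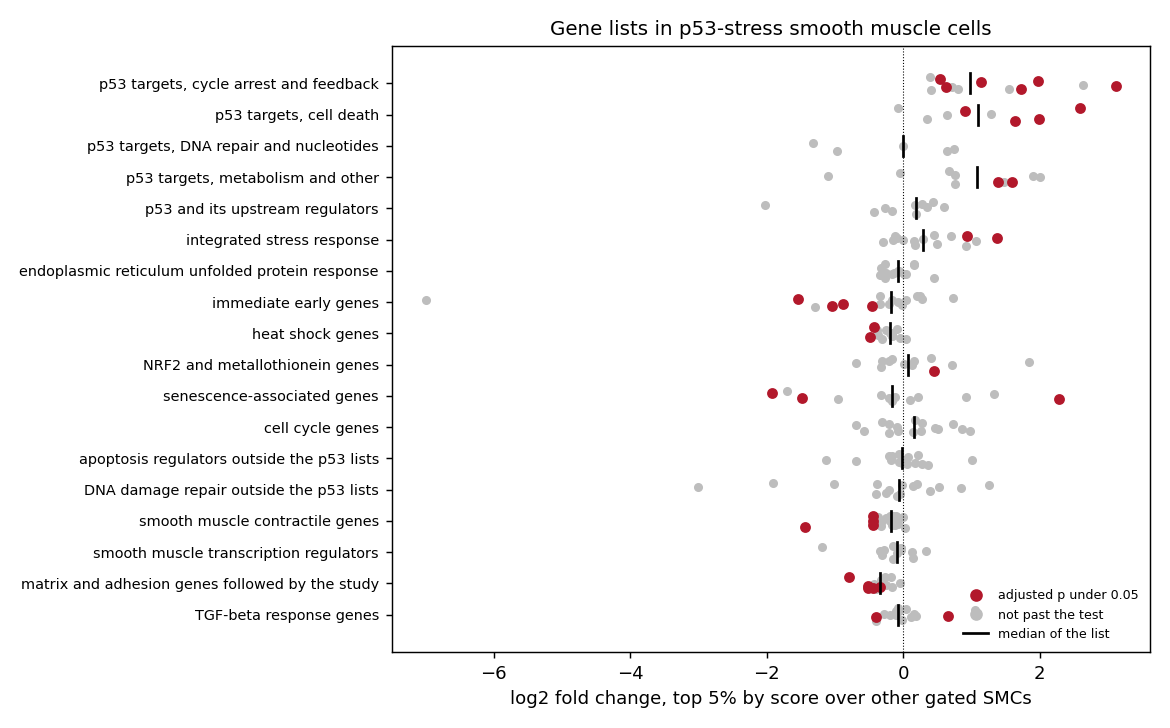
Log2 fold change of each tested gene (x axis, p53-stress over other gated SMCs) in the gene lists other than those of cell type and region markers (y axis), with genes past the edgeR test at an adjusted p under 0.05 in red, other genes in grey and the median of each list as a black bar. The medians of the p53 target lists other than DNA repair lie to the right of 0 and those of the matrix and contractile lists slightly to the left, and the point at the far left is Egr3, with 0 UMIs in the p53-stress SMCs, whose fitted value is no bound.

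Some markers of small-vessel mural cells were lower in the p53-stress SMCs. Of 6 listed, 4 were tested and 3 fell, where 1.15% of all genes tested fell, and with DESeq2 1 fell. They were the regulator of G protein signalling Rgs5 at 369 and 391 CPM against 925 and 913 CPM (log2 fold change -1.32, edgeR adjusted p = 4.99e-08), and the ATP-sensitive potassium channel subunits Kcnj8 at 30.9 and 41.2 CPM against 71.2 and 87.1 CPM (log2 fold change -1.18) and Abcc9 at 56.3 and 95.2 CPM against 127 and 135 CPM (log2 fold change -0.88). Of the 203 and 152 UMIs of Rgs5 in the set, 42 and 110 came from 1 cell in each aorta. The part of such cells in the other differences was not tested. In cells scored without Cdkn1a 3 markers of the list fell and 2 rose.

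No marker of another cell type passed the test as higher in the set, but in cells scored without Cdkn1a 3 fibroblast markers and 1 endothelial marker did, and with a mitochondrial share under 5% 1 fibroblast marker did. Summed fibroblast markers stood at 744 and 211 CPM against 627 and 557 CPM, with 6 of 10 genes higher in aorta 1 and 0 of 10 in aorta 2. Of 10 tested 2 fell, Col14a1 and Fbln1, where 1.15% of all genes tested fell. No fibroblast marker fell with DESeq2 or in cells chosen in part of their UMIs, and 1 fell without the aorta as a block. Fbln1 had a log2 fold change of 0.20 in cells scored without Cdkn1a. Endothelial markers stood at 78.1 and 87.5 CPM against 74.1 and 80.4 CPM, none passed, and Kdr, Tie1 and Emcn were at 0 UMIs in both aortas. Leukocyte markers stood at 65.4 and 51.5 CPM against 177 and 69.8 CPM, and C1qa, a complement subunit of macrophages, had 3 UMIs, a ratio to the other SMCs of 0.164 (counting interval 0.0336 to 0.482). That interval pools the UMIs of both aortas and leaves out the spread between cells and animals. Of 7 leukocyte markers tested C1qa alone fell, where 1.15% of all genes tested fell. No leukocyte marker fell with DESeq2 or without the aorta as a block. Haemoglobin genes were lower, Hbb-bs at 18.2 and 33.5 CPM against 319 and 53.2 CPM, Hba-a1 at 3.63 and 7.72 CPM against 99.6 and 15.3 CPM and Hba-a2, whose near-identical copy makes it uncertain, at 7.26 and 5.15 CPM against 76.4 and 10.3 CPM. None of the 3 haemoglobin genes passed with DESeq2 or without the aorta as a block. Mesothelial markers stood at 3.63 and 5.15 CPM against 46.3 and 20.1 CPM, and Schwann cell markers were too sparse to be tested. The part of these markers in the result was not tested.

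Genes that mark the embryonic origin or position of SMCs along the aorta did not pass. Summed posterior Hox genes stood at 59.9 and 126 CPM against 48.3 and 61.4 CPM, among them Hoxa7 at 30.9 and 54.0 CPM against 24.8 and 32.3 CPM. The Dlx and Msx2 group stood at 30.9 and 33.5 CPM against 57.4 and 64.8 CPM, lower in both aortas, with Dlx5 at 19.97 and 12.9 CPM against 23.9 and 28.6 CPM. Hand2 stood at 54.5 and 18.0 CPM against 44.2 and 32.3 CPM.

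The 10 genes outside the score, gate and p53 lists with the largest rise, Timp1 among them, mostly held few UMIs. Ass1, argininosuccinate synthase, stood at 27.2 and 23.2 CPM against 1.27 and 2.03 CPM (log2 fold change 3.95, SE 0.498, edgeR adjusted p = 5.97e-05), with 10 of its 15 UMIs in aorta 1 in 1 cell. Ass1, Ano3, Dglucy and Fam110a were under the low-count filter in the other SMCs of at least 1 aorta and so were tested only because of their level in the p53-stress SMCs, as were 8 of the 76 higher genes in all. Cox6b2, a cytochrome c oxidase subunit otherwise known from testis, stood at 52.6 and 72.0 CPM against 8.25 and 7.73 CPM (log2 fold change 2.88, edgeR adjusted p = 2.54e-06), in 12 of 65 and 12 of 46 cells. Mybl1, a Myb transcription factor of germ cells, stood at 25.4 and 48.9 CPM against 5.26 and 6.10 CPM (log2 fold change 2.60). Both genes were found in a minority of the cells.

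Ddit4l, an inhibitor of mTORC1 signalling, stood at 47.2 and 48.9 CPM against 9.52 and 12.9 CPM (log2 fold change 2.09, edgeR adjusted p = 0.00017), in 19 and 13 cells with at most 3 UMIs in any. Mmp2, gelatinase A, stood at 105 and 61.8 CPM against 15.4 and 19.1 CPM (log2 fold change 2.30, edgeR adjusted p = 1.36e-05), and without the cell that had most of it at 63.6 and 55.2 CPM. Dnm3, a dynamin, stood at 27.2 and 25.7 CPM against 3.17 and 3.12 CPM (log2 fold change 3.03). Ano3 (3.23), Dglucy (2.56) and Fam110a (2.32) completed the 10 with Timp1, by log2 fold change, each on at most 13 UMIs in the set except Timp1. Dnm3, Ano3, Dglucy and Timp1, like Atf5, Ei24, Ddit3, Ccnd2, Dusp1, Hspa1a, Des, Smtn, Eln, Fn1, Ltbp2, Abcc9, Col14a1, Hand2, Hoxa7 and Trp53cor1 above and Pde10a described next, overlap a gene on the other strand. Whether the counts used strand is not given in the sources used here, so reads of such neighbours may be included.

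The 10 genes with the largest fall included the haemoglobin genes, C1qa and others near 0. Upk3b, a mesothelial uroplakin, and Pde10a, a phosphodiesterase, had 0 UMIs in the set and were at least 4.61-fold and 3.11-fold lower than in the other SMCs against a floor of 3 UMIs over the set. Scara5, a ferritin receptor, had 1 UMI (ratio 0.0712, counting interval 0.0018 to 0.4002) and Tfap2b, a neural crest transcription factor, had 2 (ratio 0.0944, counting interval 0.0114 to 0.343). Igfbp2 stood at 5.45 and 5.15 CPM against 30.6 and 33.6 CPM and Adamtsl1, an ADAMTS-like matrix protein, at 9.08 and 20.6 CPM against 65.0 and 72.3 CPM (log2 fold change -2.33, edgeR adjusted p = 0.000105). With a few UMIs in 111 cells, such falls do not rank these genes. Upk3b, Pde10a, Scara5 and Tfap2b were under the low-count filter in the p53-stress SMCs of at least 1 aorta. They were thus tested only because of their level in the other SMCs, as were 5 of the 130 lower genes in all. The floor and the counting intervals pool the UMIs of both aortas and leave out the spread between cells and animals. In cells scored without Cdkn1a, Igfbp2 was higher and passed the test (log2 fold change 1.33, edgeR adjusted p = 6.25e-06), and Upk3b had a log2 fold change of 0.76 that did not pass (edgeR adjusted p = 0.428).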

How the data were processed

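Single-cell RNA was counted in 2 aortas with the Chromium 3′ chemistry, which uses UMIs. The deposited values are raw UMI counts per gene and cell, which the authors made with Cell Ranger (4.0.0 per the file headers) on mm10 with eGFP and tdTomato added. Strand use is not given in the sources used here. The files hold 32287 features and 8947 and 6263 cells. The labels give 6278 and 4300 cells after filtering, and the study's stated limits (5000 to 25000 UMIs, eGFP over 1 UMI) left 1916 and 1295.

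Cells were filtered, gated and scored as described above. No doublets were removed beyond the gate, and removal of those called by Scrublet (scanpy 1.11.5) was an alternative. UMIs were summed per aorta and set of cells, because cells are not replicates. The 4 sums, of 388636 to 11030292 UMIs, were fitted with edgeR 4.0.16 (TMM, filterByExpr, aorta as block, quasi-likelihood test, Benjamini-Hochberg over all genes). The block stands for the animal, since both sums of an aorta share it. It leaves 1 residual degree of freedom, to which the fit adds 19.02 prior ones estimated across genes (infinitely many in some choices of cells, which makes p-values there too small), so the p-values rest on a spread shared by genes and on 2 animals. On simulated counts of this comparison (11301 genes), 27.3% of 2-fold and 73.2% of 4-fold changes were recovered, and 2 of 11105 unchanged genes were called. The simulated sums held no single cells, no difference between aortas and no choice of cells by a score. Counts that come from 1 cell were thus not covered, and these rates need not hold for the data. DESeq2 1.42.0 was an alternative. Score and gate genes were left out of every count.

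Named genes were the score genes, p53 targets past the threshold (up to 12), up to 3 members of each other list in each direction or else its most abundant member, and the 10 highest and 10 lowest other genes with at least 30 UMIs and 1 direction in both aortas. The cells and all gene lists were chosen with earlier results of these data known. Shares of cells were taken after thinning to 3000 UMIs. Promoter sequences were from RefSeq (GRCm38.p6); 8 of the 12 p53 targets had one, 5 of them with the motif.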

Additional observations from a re-analysis of the deposited data

How the results depend on the processing

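The limits are those of 2 aortas, 111 cells and few UMIs per gene; a count without 1 aorta cannot be tested, since no residual degree of freedom is left, and values in each aorta are given above. With DESeq2, 29 genes were higher, 35 lower and 5 p53 targets higher (Aen, Ccng1, Bax, Dcxr and Rps27l). Aen, Ccng1, Bax and Rps27l passed under all 18 alternatives that differ from the reported fit. Scores without Psrc1 or Eda2r chose the same cells, and these 2 were not counted. Without the replicate block 51 genes were higher and 70 lower, and 10 p53 targets were higher. Scored without Gdf15, 47 were higher and 57 lower, and without Cdkn1a 136 were higher. The number lower was 238 with no filter on low counts, 203 with eGFP over 1 UMI, 80 against cells of like UMI total, 207 against cells without score UMIs and 79 for cells chosen in part of their UMIs. p53 targets called numbered 9 to 15 under the alternatives other than DESeq2.

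Under these 18, 964 of 974 alternative values of 55 called named genes kept their direction, and 181 no longer passed. For the score genes read in cells chosen by the other 5, DESeq2, library totals, no filter and no replicate block were added after seeing the data, and each called gene still passed where it had an adjusted p. Reversed log2 fold changes were, scored without Cdkn1a, -0.23 for Usp7, 0.044 for Igfbp4, 0.085 for Mcl1, 0.075 for Fn1, 0.20 for Fbln1, 0.76 for Upk3b and 1.33 for Igfbp2. With the top 10% they were -0.047 for Usp7, 0.017 for Mcl1, 0.23 for Eng and 0.32 for Igfbp2. With the top 2.5% they were 0.0046 for Mcl1, 0.21 for Rad50 and -0.045 for Mef2c. With a mitochondrial share under 5% they were -0.057 for Timp1, 0.14 for Rad50, 0.25 for Hand2 and -0.038 for Hoxa7. Chosen in part of the UMIs, they were 0.34 for Rad50, 0.049 for Hand2 and 0.31 for Eng. Scored without Gdf15, they were 0.0021 for Mcl1, 0.0046 for Rad50, 0.068 for Eng and 0.61 for Upk3b. Scored without Mdm2, they were 0.036 for Rad50 and 0.016 for Eng, and without Phlda3 0.079 for Mcl1 and 0.11 for Rad50. Library totals gave 0.023 for Mcl1 and 0.0060 for Eng, cells without score UMIs 0.028 for Mcl1, and removal of called doublets 0.00070 for Eng. With 1000 to 25000 UMIs, Rad50 gave 0.084 and Upk3b 0.57, and with 5000 to 25000 UMIs Eng gave 0.093 and Upk3b 0.66. The cause of these changes was not tested.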
